A study of Drosophila melanogaster with 11 samples.

Results

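Muscle precursors and epithelial cells of the fly wing disc were compared between 2 lines of Drosophila melanogaster that the study pooled as wild type, the driver line 1151-GAL4 and the RNAi control line 1151>mCherry-RNAi. Drop-seq libraries were made from the notum and hinge of wing discs, with the pouch cut away, of wandering larvae of the third instar grown at 25 C. Both lines carry the transgene P{1151-GAL4}. In 1151-GAL4 (4 libraries, replicates 1, 2, 3 and 4) chromosomes 2 and 3 are given as +, and in 1151>mCherry-RNAi (4 libraries, replicates 1, 5, 6 and 7) the hairpin transgene P{VALIUM20-mCherry} is inserted at attP2 on chromosome 3. A further line of 3 libraries, 1151>Ama-RNAi (replicates 1, 4 and 5), carries P{TRiP.Ama_HMS00297} at the same attP2 site and is set beside the pair where its epithelial values bear on it. The line was not varied within a library, so that line, genetic background and set of libraries cannot be told apart. The sex of the larvae is not given in the sources used here, and nothing says that the libraries of a line came from separate crosses, so that p-values measure the spread between these libraries, which may be technical.

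Barcodes with 200 to 2500 detected genes were kept and sorted by 8 class genes. A barcode was of the myoblast class when it held at least 2 UMIs (unique molecular identifiers, each standing for 1 captured transcript) of Him, zfh1, twi and CG9650 together and more than 2 times the UMIs of Fas3, grh, ImpE1 and ImpE2, and of the epithelial class in the converse case. The classes took in 15321 of 22041 barcodes of both lines, out of 18097 classed barcodes in all 11 libraries. They were 10927 barcodes of 1151-GAL4 (4034 myoblast and 6893 epithelial) and 4394 of 1151>mCherry-RNAi (1101 myoblast and 3293 epithelial). UMIs were summed per library and class, so that the library was the replicate.

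The adult muscle precursors, or myoblasts, lie beneath the notum epithelium of the wing disc and later build the flight muscles. They stay undifferentiated and proliferate under Notch signalling, which they receive from the epithelium, and Notch acts largely through the Enhancer of split, or E(spl), complex of repressors and Bearded-family genes. GAL4 is a yeast transcription factor that switches on any transgene behind its UAS sites. Because 1151-GAL4 drives expression in myoblasts, a hairpin is made in these cells and not, by design, in the epithelium. Flies have no mCherry gene, and a hairpin against it therefore serves as an RNAi control. A difference that stands in both classes is thus shared by cells that are meant to express the hairpin and cells that are not.

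Between 2007565 and 10548893 UMIs were counted per library of 1151-GAL4 and between 1335977 and 2947813 per library of 1151>mCherry-RNAi. Markers that the class rule did not use (Mef2, BM-40-SPARC, Ef1alpha100E, trol and babos for myoblasts, and ovo, Blimp-1, Lac, ft and CG34383 for epithelial cells) were all higher in their own class, in 8 of 8 libraries. At most 3 barcodes were shared by any pair of libraries. Library measures differed between the lines: barcodes with fewer than 200 genes numbered 93 to 768 per library of 1151-GAL4 and 4928 to 12280 per library of 1151>mCherry-RNAi. The share of 28S ribosomal RNA overlapped, since it took 0.0258% to 0.149% of epithelial UMIs in 1151-GAL4 and 0.101% to 0.326% in 1151>mCherry-RNAi. Of 1151>mCherry-RNAi, replicate 1 stood apart from the other 3 with 0.650% to 0.681% mitochondrial UMIs, against 3.26% to 4.94%.

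Every library of 1151>mCherry-RNAi had a lower median of UMIs per barcode than every library of 1151-GAL4, in both classes. Myoblast barcodes held a median of 850, 748, 937 and 898.5 UMIs in the libraries of 1151-GAL4 and of 644.5, 729, 615 and 516 in those of 1151>mCherry-RNAi. Epithelial barcodes held 1118, 1292.5, 1058.5 and 1013 UMIs in 1151-GAL4 and 688, 938.5, 555 and 659 in 1151>mCherry-RNAi. In neither class did the lines overlap, and both differences reached the smallest p that 4 against 4 libraries allow in a two-sided exact permutation test (p = 0.0286, 0.0714 after Benjamini-Hochberg adjustment over 5 such tests). Median genes per barcode overlapped between the lines. They were 372 to 414 in 1151-GAL4 and 310 to 395 in 1151>mCherry-RNAi in myoblasts (exact permutation p = 0.0571). In epithelial cells they were 461 to 591.5 and 331 to 489.5 (exact permutation p = 0.0857).

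The share of myoblasts among classed barcodes was 41.8%, 39.8%, 35.3% and 36.9% in 1151-GAL4 and 30.5%, 38.4%, 17.5% and 21.5% in 1151>mCherry-RNAi. The means were 38.4% ± 2.90 and 27.0% ± 9.38 (SD, n = 4 each), a difference of 11.4 percentage points that did not pass the test (exact permutation p = 0.0857). Replicate 5 of 1151>mCherry-RNAi lay within the range of 1151-GAL4, and without it the difference was 15.3 points. No test is given for that subset, because leaving out the overlapping library fixes its outcome in advance.

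**Figure D1:**
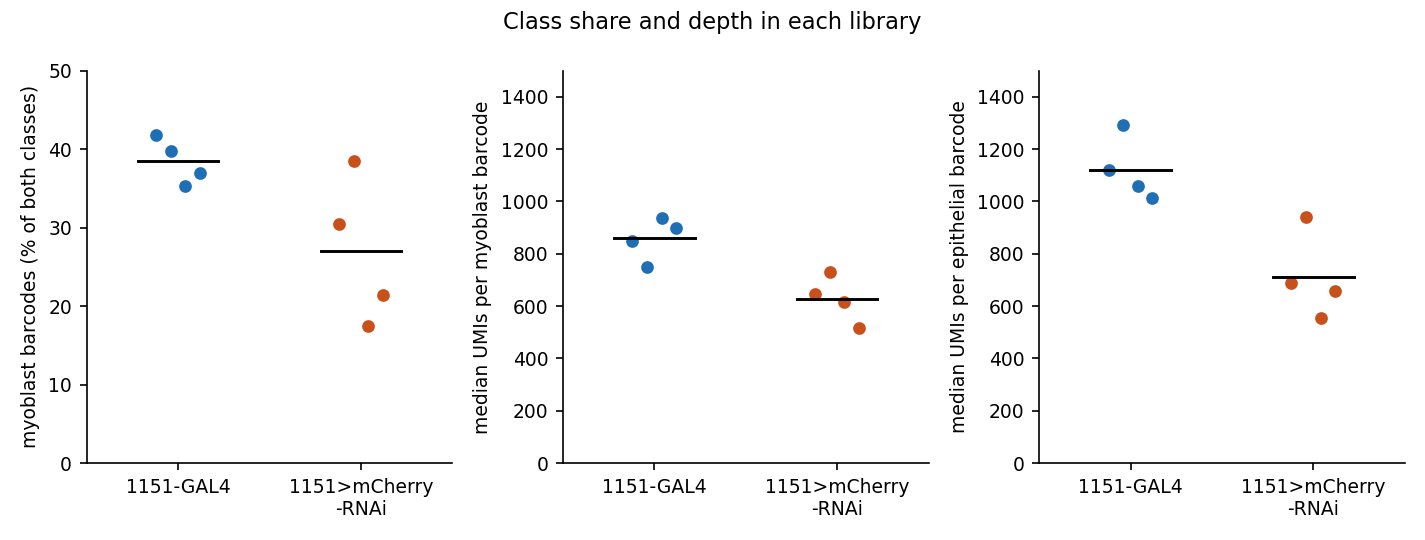
Myoblast barcodes as a percentage of both classes (left) and median UMIs per myoblast (middle) and epithelial (right) barcode, with a point per library and a bar at the mean of 4 libraries. The shares overlap between the lines, whereas every 1151-GAL4 library has a higher median UMI number than every 1151>mCherry-RNAi library in both classes.

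Of 2525 genes tested in myoblasts by edgeR's quasi-likelihood test, 315 (12.5%) differed between the lines at an adjusted p below 0.05, 96 (3.8%) higher and 219 (8.67%) lower in 1151-GAL4. In epithelial cells 567 of 5382 genes (10.5%) differed, 199 (3.7%) higher and 368 (6.84%) lower. These counts include 3 of the class genes in myoblasts and 2 in epithelial cells. Levels are given in CPM, that is UMIs of the class scaled to a common depth by the TMM method of edgeR, or in unscaled CPM where the class total alone was used, and log2 fold changes are 1151-GAL4 over 1151>mCherry-RNAi, so that a positive value means a higher level in 1151-GAL4. The counts rested in part on single libraries: they were 490 and 906 genes without replicate 1 of 1151>mCherry-RNAi, 141 and 220 without its replicate 6, 116 and 133 without its replicate 7, and 121 and 244 without replicate 3 of 1151-GAL4. The epithelial count was 376 without replicate 1 and 374 without replicate 4 of 1151-GAL4. The 4 libraries of each line did not overlap for 190 genes higher (7.52%) and 237 lower (9.39%) in myoblasts of 1151-GAL4 and for 376 higher (6.99%) and 400 lower (7.43%) in epithelial cells.

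CG43386, on the X chromosome (X:9966615-9977405, minus strand, BDGP6 annotation), showed the largest fold change in either class. In myoblasts it stood at 2.72, 3.57, 0 and 3.77 CPM in 1151-GAL4 and at 718, 2828, 1228 and 2581 CPM in 1151>mCherry-RNAi. In epithelial cells it stood at 0.923, 0.920, 2.27 and 2.99 CPM in 1151-GAL4 and at 539, 2362, 1276 and 3003 CPM in 1151>mCherry-RNAi. The gene was thus nearly silent in every 1151-GAL4 library and abundant in every 1151>mCherry-RNAi library, in the class meant to express the hairpin and in the class not meant to. The log2 fold changes were -9.52 ± 0.60 (SE, edgeR adjusted p = 6.32e-08) in myoblasts and -9.62 ± 0.58 (edgeR adjusted p = 3.96e-08) in epithelial cells.

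At most 0.480% of the barcodes of any class and library of 1151-GAL4 held a UMI of CG43386, against 34.0% to 86.1% of myoblasts in 1151>mCherry-RNAi. Its transcripts were also found in shallow barcodes: in those with fewer than 200 genes they reached 6655, 12213, 3202 and 4454 unscaled CPM in 1151>mCherry-RNAi, above the 579, 2758, 1302 and 2772 unscaled CPM of barcodes with 200 to 2500 genes of the same libraries. The part of free RNA in the level per class was not tested. In 1151>Ama-RNAi, the other line with a hairpin at attP2, epithelial CG43386 stood at 116, 643 and 1277 unscaled CPM, between the lines in its lowest library and within the range of 1151>mCherry-RNAi in the others. CG1889 lies on the opposite strand of the same interval, and whether counting used the strand is not given in the sources used here.

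beat-Ib, a member of the Beat family of immunoglobulin-domain proteins known from motor axon guidance, was seen in myoblasts of 1 line alone. No UMI of beat-Ib was found among 4296457 myoblast UMIs of 1151-GAL4, whereas the libraries of 1151>mCherry-RNAi held 4, 26, 15 and 38 UMIs, or 42.9, 84.6, 109.7 and 161.6 CPM. Over each line as a whole beat-Ib was at least 148-fold lower in 1151-GAL4, with 3 counts over the line taken as the floor that a count of 0 allows (0.698 against 103 unscaled CPM). Myoblast barcodes with a UMI of it made up 0% in every 1151-GAL4 library and 2.78%, 6.37%, 7.61% and 8.52% in 1151>mCherry-RNAi.

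Whether epithelial cells shared this difference in a smaller form cannot be told. Their UMIs of beat-Ib numbered 4, 1, 5 and 2 in 1151-GAL4 and 0, 2, 5 and 3 in 1151>mCherry-RNAi, too few for a test. In unscaled CPM these were 3.91, 0.980, 1.12 and 0.355 in 1151-GAL4 and 0, 2.23, 6.49 and 2.03 in 1151>mCherry-RNAi. At most 0.781% of epithelial barcodes held a UMI in any library of 1151-GAL4 and at most 0.431% in any of 1151>mCherry-RNAi, whose epithelial barcodes were deeper than its myoblast barcodes in replicates 1, 5 and 7. The line difference of beat-Ib differed between the classes in the fit of both classes with the library as a block (adjusted p = 7.36e-05). No UMI was found either among 59580 myoblast UMIs of 1151>Ama-RNAi, from 53 barcodes, which allows up to 50.4 unscaled CPM and therefore overlaps the lowest library of 1151>mCherry-RNAi. beat-Ib spans 2L:15905134-15962435 on the minus strand, and 9 annotated features overlap it, of which 8 lie on the plus strand.

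The noncoding RNA CR40469 (X:122493-122706) was abundant in both classes and several times lower in 1151-GAL4. Myoblasts held 3101, 5086, 3375 and 1537 CPM of CR40469 in 1151-GAL4 and 19229, 21958, 19077 and 22777 CPM in 1151>mCherry-RNAi. In epithelial cells it was at 6358, 8902, 5872 and 2669 CPM in 1151-GAL4 and 41633, 34366, 33047 and 46667 CPM in 1151>mCherry-RNAi. The 4 libraries of each line lay far apart from those of the other, with log2 fold changes of -2.67 ± 0.28 in myoblasts (SE, edgeR adjusted p = 5.1e-05) and -2.71 ± 0.32 in epithelial cells (edgeR adjusted p = 1.99e-04). Epithelial CR40469 stood at 32033, 35545 and 50126 unscaled CPM in 1151>Ama-RNAi, above every 1151-GAL4 library.

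**Figure D2:**
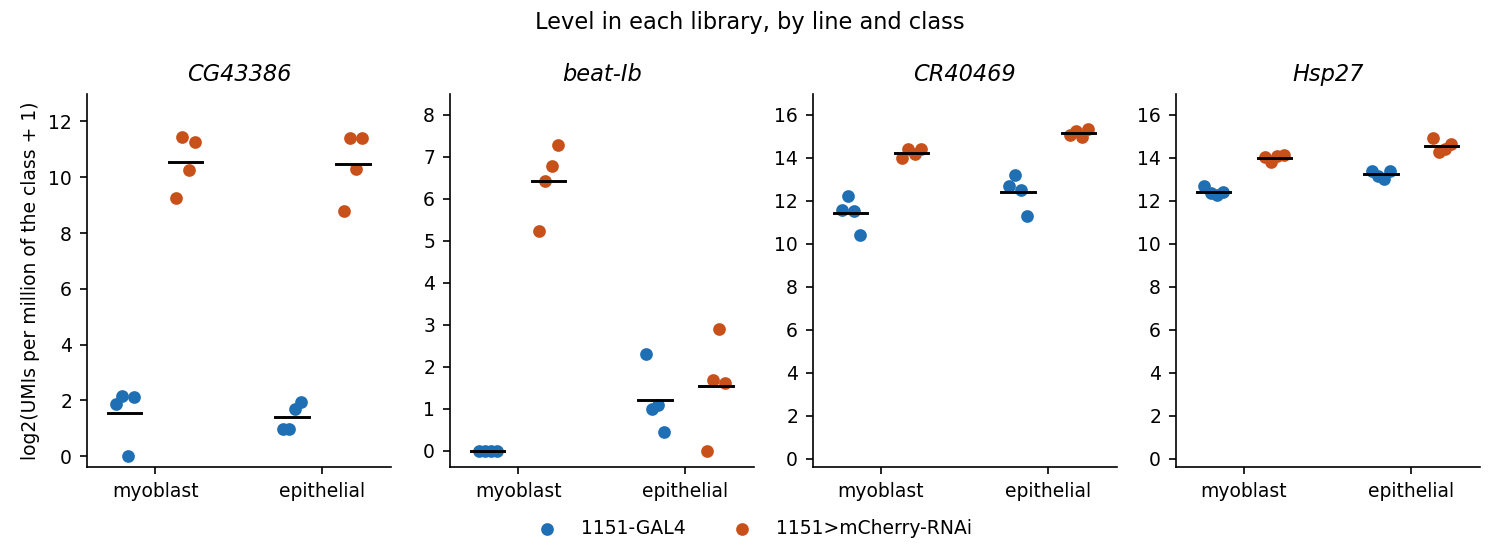
Levels of CG43386, beat-Ib, CR40469 and Hsp27 in each library, as log2 of unscaled CPM plus 1, with a bar at the mean of 4 libraries. CG43386, CR40469 and Hsp27 separate the lines in both classes, and beat-Ib separates them in myoblasts only, with 0 in all 4 libraries of 1151-GAL4.

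Genes of the E(spl) complex formed the clearest group among those higher in 1151-GAL4 myoblasts. Of 12 Notch pathway genes tested there, 8 were higher in 1151-GAL4 and 0 lower, beside 3.8% higher and 8.67% lower over all genes tested. Their median log2 fold change was 1.16, beside -0.01 over all genes. The 8 were E(spl)m2-BFM, E(spl)m6-BFM and E(spl)malpha-BFM of the Bearded family and the basic helix-loop-helix repressors E(spl)m3-HLH, E(spl)mgamma-HLH, E(spl)m8-HLH, E(spl)mdelta-HLH and also E(spl)m7-HLH. The summed level of the whole list was 7953 to 12814 unscaled CPM in myoblasts in 1151-GAL4 and 2975 to 7361 in 1151>mCherry-RNAi, without overlap.

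E(spl)m6-BFM, a Bearded-family gene that was scarce in epithelial cells here (at most 55.8 CPM), stood at 1746, 1998, 2970 and 3604 CPM in 1151-GAL4 and at 1071, 736, 322 and 1008 CPM in 1151>mCherry-RNAi (log2 fold change 1.72 ± 0.31, SE, edgeR adjusted p = 0.00303). E(spl)m3-HLH stood at 520, 600.5, 960.3 and 725 CPM in 1151-GAL4 and at 193, 348, 175 and 323 CPM in 1151>mCherry-RNAi (1.39 ± 0.26, edgeR adjusted p = 0.00315). Both genes had no overlap between the lines. A UMI of E(spl)m6-BFM was held by 59.4% to 82.6% of myoblast barcodes per library of 1151-GAL4 and by 16.2% to 43.8% of 1151>mCherry-RNAi, whose barcodes were shallower. In summed samples a smaller part of cells that express a gene and less of its RNA per cell cannot be told apart. E(spl)malpha-BFM stood at 555, 479, 1050.3 and 733 CPM in 1151-GAL4 and at 418, 221, 43.9 and 234 CPM in 1151>mCherry-RNAi (1.68 ± 0.38, edgeR adjusted p = 0.0116). E(spl)m8-HLH stood at 158, 132, 170.5 and 123 CPM in 1151-GAL4 and at 53.6, 74.9, 7.31 and 59.5 CPM in 1151>mCherry-RNAi (1.44 ± 0.32, edgeR adjusted p = 0.0105). The lowest values of all 4 genes came from replicate 6 of 1151>mCherry-RNAi, and the highest of E(spl)m6-BFM, E(spl)m3-HLH and E(spl)malpha-BFM from replicates 3 and 4 of 1151-GAL4, the deepest libraries.

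E(spl)mbeta-HLH, the most abundant of the complex in myoblasts, did not pass the test (2736, 2820, 4280 and 5552 CPM in 1151-GAL4 and 3814, 1790, 790 and 2207 CPM in 1151>mCherry-RNAi, log2 fold change 0.85 ± 0.35, edgeR adjusted p = 0.121). The receptor gene N gave -0.57 ± 0.18 (edgeR adjusted p = 0.0543) and the ligand gene Dl -0.02 ± 0.19 (edgeR adjusted p = 0.961) in myoblasts. Neither N nor Dl was called in myoblasts. Ser, a further ligand gene, held 2, 4, 7 and 17 myoblast UMIs in 1151-GAL4 and 3, 1, 0 and 1 in 1151>mCherry-RNAi. Epithelial Dl overlapped between the lines, at 685 to 829 unscaled CPM in 1151-GAL4 and 703 to 927 in 1151>mCherry-RNAi. Whether the Notch signal itself differed was not tested.

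In epithelial cells 14 Notch pathway genes were tested, 0 were higher and 1 was lower in 1151-GAL4, with a median of -0.05. The share of lower calls over all epithelial genes was 6.84%, so that 1 of 14 is close to the background. The 1 gene was N itself, at 934, 899, 806 and 823 CPM in 1151-GAL4 and 1672, 1037, 1247 and 1461 CPM in 1151>mCherry-RNAi (log2 fold change -0.64 ± 0.20, edgeR adjusted p = 0.0499). Some epithelial E(spl) values rested on replicate 1 of 1151>mCherry-RNAi. E(spl)malpha-BFM was at 314 CPM in that library, against 25.5 to 41.4 CPM in replicates 5, 6 and 7. E(spl)m8-HLH was at 112 CPM, against 15.8 to 31.6 CPM. E(spl)m6-BFM was at 28.9 CPM, against 15.7 to 23.7 CPM. Without replicate 1 the epithelial log2 fold change of E(spl)malpha-BFM was 0.999 in place of -0.30. The difference between the classes was tested directly. Of 5623 genes, 36 (0.64%) had a line difference that differed between myoblasts and epithelial cells, 20 (0.356%) of them in the positive direction, which stands for a larger value of 1151-GAL4 over 1151>mCherry-RNAi in myoblasts. The Bearded-family genes E(spl)malpha-BFM, E(spl)m2-BFM and E(spl)m6-BFM and the repressor genes E(spl)mbeta-HLH, E(spl)m8-HLH, E(spl)mgamma-HLH, E(spl)m3-HLH and also E(spl)m7-HLH, 8 of 14 Notch pathway genes tested, were among the 20, from 0.97 ± 0.16 for E(spl)mbeta-HLH to 1.88 ± 0.40 for E(spl)m8-HLH on the log2 scale. This count was 3 to 9 when each library was left out in turn. The call of E(spl)m8-HLH between classes was lost in 2 of the alternative settings, without replicate 3 of 1151-GAL4 and without replicate 1 of 1151>mCherry-RNAi (highest adjusted p of edgeR 0.116), and that of E(spl)mgamma-HLH in 5 (0.478).

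The count of called E(spl) genes depended on the libraries. It was 3 without replicates 3 and 4 of 1151-GAL4, 3 without replicates 5 and 6 of 1151>mCherry-RNAi and 3 to 9 when each library was left out in turn. It was 8 of 12 with barcodes thinned to 400 UMIs, which dropped barcodes with fewer. These were 9.76% to 18.9% of the kept barcodes per library of 1151-GAL4 and 20.1% to 31.9% per library of 1151>mCherry-RNAi. DESeq2, library totals and stricter classes each called 1 Notch pathway gene lower in myoblasts of 1151-GAL4, and the other settings called 0.

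**Figure D3:**
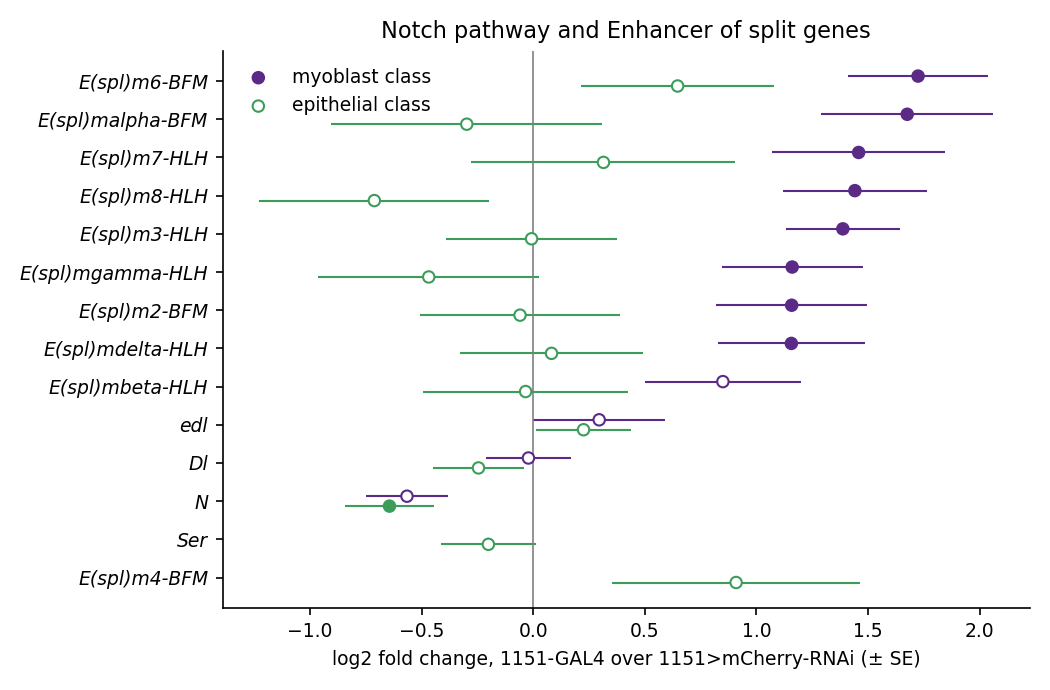
Log2 fold change (1151-GAL4 over 1151>mCherry-RNAi, bars ± SE) of Notch pathway genes in myoblasts and epithelial cells; filled symbols mark genes called at an adjusted p below 0.05. In myoblasts 8 E(spl) genes lie to the right of 0 and are called, whereas in epithelial cells the E(spl) symbols lie on both sides of 0 and none is called.

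Cytoplasmic ribosomal protein genes lay slightly higher in 1151-GAL4 in both classes. In myoblasts 18 of 84 tested were higher and 0 lower (median log2 fold change 0.49), and in epithelial cells 7 of 85 were higher and 0 lower (median 0.41, beside 0.01 over all genes tested). Over all genes 3.8% were higher in myoblasts and 3.7% in epithelial cells. RpL23A, a protein of the large subunit, showed the largest difference in both, with 3186 and 1315 CPM on average in myoblasts of 1151-GAL4 and 1151>mCherry-RNAi (1.30 ± 0.28). These counts moved with the scaling and with single libraries: they were 34 and 38 with library totals in place of TMM, 69 and 65 without replicate 1 of 1151>mCherry-RNAi, and 0 and 0 without its replicates 5 and 6.

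Some genes of the nucleolus and of growth were lower in 1151-GAL4. Of the list of Myc and nucleolar growth genes, 5 of 9 tested in myoblasts (Nop56, nop5, Nop60B, pit and dm) and 4 of 10 in epithelial cells (Nop56, Nop60B, dm and nop5) were lower in 1151-GAL4, beside 8.67% and 6.84% over all genes, and 0 were higher in either class. Fib, the methyltransferase that works with Nop56, gave positive values that did not pass the test (0.52 ± 0.22 in myoblasts and 0.29 ± 0.20 in epithelial cells). Nop56, a core protein of box C/D small nucleolar ribonucleoproteins, stood at 307, 322, 286 and 247 CPM in myoblasts of 1151-GAL4 and at 386, 1045, 951 and 902 CPM in 1151>mCherry-RNAi (log2 fold change -1.53 ± 0.25, edgeR adjusted p = 0.00144). The gene dm encodes the fly Myc and stood at 1398, 1562, 1474 and 1811 CPM in 1151-GAL4 and at 2646, 2470.1, 2896 and 3585 CPM in 1151>mCherry-RNAi (-0.89 ± 0.19, edgeR adjusted p = 0.00718). Replicate 1 of 1151>mCherry-RNAi came close to 1151-GAL4 for Nop56 but not for dm. Between 3 and 5 of these genes were lower in myoblasts under each alternative setting and each library left out.

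Among entries for ribosomal RNA the results differed by entry. The 28S pseudogene CR45855, which can take up reads of 28S rRNA, stood at 79.4, 123, 114 and 194 CPM in epithelial cells of 1151-GAL4 and at 234, 1795, 1979.7 and 1732 CPM in 1151>mCherry-RNAi (28SrRNA-Psi:CR45855, log2 fold change -3.48 ± 0.47, edgeR adjusted p = 5.79e-04). The 28S entry 28SrRNA-Psi:CR45859 passed the test in neither class (-1.57 ± 0.63 in myoblasts and -0.83 ± 0.59 in epithelial cells), and 28SrRNA-Psi:CR40741 passed it in myoblasts (-2.26 ± 0.47) but not in epithelial cells (-0.79 ± 0.39). In myoblasts 28SrRNA-Psi:CR45855 overlapped between the lines, since replicate 1 of 1151>mCherry-RNAi held 129 CPM and replicate 4 of 1151-GAL4 held 173. Of the annotated long noncoding RNAs and ribosomal RNAs, 0 of 22 tested in myoblasts were higher and 7 lower in 1151-GAL4, and 1 of 54 in epithelial cells was higher (CR44030) and 15 lower. Over all genes 3.8% were higher and 8.67% lower in myoblasts, and 3.7% and 6.84% in epithelial cells. Copies of the ribosomal genes are nearly identical, so that the share of reads given to any single copy is uncertain.

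Heat shock genes split by gene. Hsp27, a small heat shock protein under ecdysone control in larvae, stood at 6719, 5458, 5679 and 6188 CPM in myoblasts of 1151-GAL4 and at 19904, 14505, 17490.3 and 18762 CPM in 1151>mCherry-RNAi (log2 fold change -1.55 ± 0.18, edgeR adjusted p = 1.33e-04). In epithelial cells its log2 fold change was -1.45 ± 0.26 (edgeR adjusted p = 0.00434). Hsp68, an inducible member of the Hsp70 family, stood at 373, 282, 277 and 264 CPM in myoblasts of 1151-GAL4 and at 589, 1276, 1038 and 2033 CPM in 1151>mCherry-RNAi (-2.07 ± 0.29, edgeR adjusted p = 7.87e-04). Neither gene overlapped between the lines in myoblasts.

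Hsc70-3, a chaperone of the endoplasmic reticulum, was lower in 1151-GAL4 in both classes, and Hsp70Aa and Hsp70Ab, close copies of each other among which counting can split reads, were lower in epithelial cells. In all, 3 of 10 heat shock genes tested in myoblasts and 5 of 13 in epithelial cells were lower and 0 were higher, beside 8.67% and 6.84% lower over all genes. Hsp23 and Hsp83 gave positive values of 0.73 and 0.53 in myoblasts that did not pass the test. With other settings 1 to 3 heat shock genes were called higher. The summed heat shock level was 11703 to 14922 unscaled CPM in myoblasts of 1151-GAL4 and 22899 to 26993 in 1151>mCherry-RNAi. Hsp27 alone held 4974 to 6577 of these in 1151-GAL4 and 14409 to 17852 in 1151>mCherry-RNAi. Most of the gap between the sums was thus that of Hsp27. Whether handling of the discs differed was not tested.

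**Figure D4:**
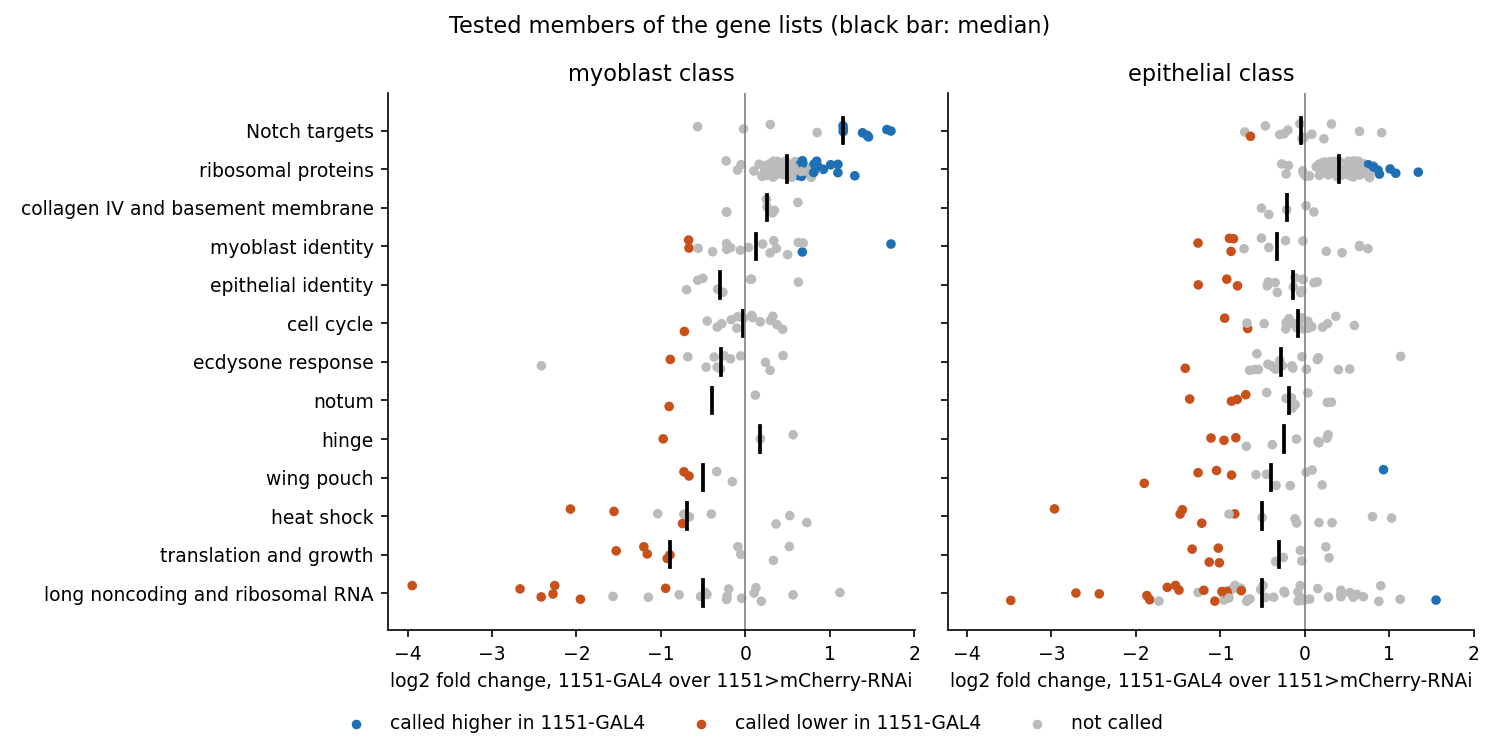
Log2 fold change (1151-GAL4 over 1151>mCherry-RNAi) of every tested member of 13 gene lists in myoblasts (left) and epithelial cells (right), with a black bar at the median of each list. Notch targets lie to the right in myoblasts only, ribosomal proteins to the right in both classes, and growth, heat shock and noncoding RNA genes mostly to the left.

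Further genes lower in 1151-GAL4 myoblasts included matrix genes. tnc encodes the matrix protein tenectin and stood at 8.16, 14.3, 8.86 and 14.0 CPM in 1151-GAL4 and at 42.9, 159, 139 and 55.3 CPM in 1151>mCherry-RNAi (log2 fold change -3.18 ± 0.40, edgeR adjusted p = 2.88e-04). dp encodes the giant apical matrix protein Dumpy and stood at 35.4, 25.0, 25.1 and 21.6 CPM in 1151-GAL4 and at 375, 384, 73.1 and 46.8 CPM in 1151>mCherry-RNAi (-3.09 ± 0.51, edgeR adjusted p = 0.00144). In barcodes with fewer than 200 genes dp reached 2985 and 2382 unscaled CPM in replicates 1 and 5 of 1151>mCherry-RNAi, against 194 and 179 in its replicates 6 and 7, and replicates 1 and 5 also held the high myoblast values. The part of free RNA in them was not tested. Both are known from epithelia, and both were also lower in epithelial cells of 1151-GAL4, by -1.49 ± 0.24 for tnc and -1.27 ± 0.26 for dp. Summed levels of the 5 epithelial check markers in myoblasts were 74.6 to 134 unscaled CPM in 1151-GAL4 and 81.7 to 243 in 1151>mCherry-RNAi, and the part of epithelial RNA in the myoblast values was not tested.

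XRCC1, a DNA repair gene, Arc1, which encodes a capsid-forming protein, SmD3, a core protein of the spliceosome, and CG6191 completed the named genes lower in 1151-GAL4 myoblasts, with log2 fold changes between -1.98 and -1.57. On the other side sea, which encodes a mitochondrial citrate carrier, had the largest positive value among genes called in myoblasts. Its levels were 155, 182, 244 and 228 CPM in 1151-GAL4 and 118, 32.5, 29.2 and 46.8 CPM in 1151>mCherry-RNAi (2.08 ± 0.33, edgeR adjusted p = 0.00113). The other named genes higher in 1151-GAL4 besides the E(spl) group were epsilonCOP of the coatomer, the tetraspanin gene Tsp96F, the RNA-binding gene qkr54B and CG12159, from 1.51 for qkr54B to 1.805 for epsilonCOP. Among the alternative settings and left-out libraries qkr54B lost its call in 7, CG12159 in 6, epsilonCOP in 4, Tsp96F in 2 and sea in 1. Of the genes lower in 1151-GAL4 myoblasts, CG6191 lost its call in 4 (highest adjusted p of edgeR 0.173), XRCC1 in 2 and tnc in 1.

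In epithelial cells Tektin-C, a gene of ciliary and sperm tail filaments, stood at 51.7, 48.8, 43.2 and 45.5 CPM in 1151-GAL4 and at 9.63, 18.6, 6.57 and 12.8 CPM in 1151>mCherry-RNAi (log2 fold change 1.89 ± 0.27, edgeR adjusted p = 6.75e-04). The gene hui stood at 80.3, 92.0, 156 and 141 CPM in 1151-GAL4 and at 35.3, 34.3, 34.2 and 41.4 CPM in 1151>mCherry-RNAi (1.70 ± 0.24, edgeR adjusted p = 6.75e-04). Neither gene overlapped between the lines. The glutathione transferase genes GstD10, GstD3 and GstD9 were higher too, at 1.63, 0.75 and 0.95, and mt:ATPase8, a short gene of the mitochondrial genome, at 1.88. Of 21 genes of the mitochondrial genome tested in epithelial cells, 1 was higher and 3 were lower, beside 3.7% and 6.84% over all genes. The call of mt:ATPase8 was lost in 2 alternative settings (highest adjusted p of edgeR 0.127). Other named genes with higher levels in 1151-GAL4 epithelium were CG12224, CG1890, CG9636, CG12481, CG12159 and CR44030, between 1.55 and 1.72. CG1890 was highest in replicate 4 of 1151-GAL4, at 238 CPM against 49.7 to 83.02 in the other 3, and the barcodes of that library with fewer than 200 genes held 2438 UMIs of CG1890, or 81735 unscaled CPM. The calls of CG1890 and CG12159 in epithelial cells were each lost in 5 alternative settings (highest adjusted p of edgeR 0.204 and 0.179).

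Toll-7, a cell surface receptor of the Toll family, stood at 60.9, 61.7, 93.03 and 108 CPM in epithelial cells of 1151-GAL4 and at 160.5, 317, 586 and 625 CPM in 1151>mCherry-RNAi (log2 fold change -2.38 ± 0.33, edgeR adjusted p = 6.75e-04). The dynein intermediate chain gene Dic61B (-3.70 ± 0.50), the glutamate receptor subunit gene GluRIIE (-2.73 ± 0.40), CG31815 (-2.44 ± 0.29) and CG12288 (-1.92 ± 0.24) were also lower in 1151-GAL4. CG42575 (annotated as NaPi-III, a phosphate transporter, 3L:11123348-11134663) stood at 10.2, 12.0, 9.33 and 7.65 CPM in 1151-GAL4 and at 32.1, 65.6, 30.2 and 29.4 CPM in 1151>mCherry-RNAi (-2.11 ± 0.30, edgeR adjusted p = 6.75e-04). It was likewise above the 1151-GAL4 libraries in the epithelium of 1151>Ama-RNAi, at 39.5, 44.6 and 31.4 unscaled CPM.

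CG42575 lies 50 kb from Mocs1, the gene at the attP2 landing site that the hairpin lines share. After its value was seen, the genes within 500 kb of Mocs1 were counted: 9 of 38 tested in epithelial cells (23.7%) and 4 of 20 in myoblasts (20%) differed between the lines, beside the shares over all genes given above. scyl, a hypoxia-induced inhibitor of TOR signalling, and CG7839, which begins 1.4 kb from Mocs1, were lower in 1151-GAL4 in both classes. CG32082, 62.7 kb from Mocs1, was called higher in epithelial cells (2.54 ± 0.77), the largest positive value there, but rested on replicate 3 of 1151-GAL4, which held 420.1 CPM against 21.2 to 39.4 CPM in the other 3. This window was chosen after the values were seen and carries no test. Mocs1 itself, and v and y, had too few UMIs for a test.

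Region genes of the epithelium were called mostly in the lower direction. Of 12 genes of the wing pouch list, 4 were lower in 1151-GAL4 (Dll, vg, bi and Lsd-2) and 1 was higher (CG17278), of 10 hinge genes 3 were lower (hth, kni and knrl) and of 12 notum genes 4 were lower (disco-r, toe, ara and klu), beside 6.84% lower calls over all genes. Dll, a homeobox gene of the distal wing and leg, stood at 12.0, 11.0, 18.4 and 18.7 CPM in 1151-GAL4 and at 32.1, 27.4, 69.7 and 98.6 CPM in 1151>mCherry-RNAi (log2 fold change -1.90 ± 0.34, edgeR adjusted p = 0.00412). The pouch had been cut away by hand in both lines, and the part of remaining pouch cells was not tested. hth, a homeobox gene of the proximal disc, stood at 2569, 2366, 3031 and 3358 CPM in epithelial cells of 1151-GAL4 and at 7323, 3642, 6569 and 6942 CPM in 1151>mCherry-RNAi (-1.11 ± 0.25, edgeR adjusted p = 0.0114).

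hth was lower in myoblasts of 1151-GAL4 as well, by -0.97 ± 0.23, and so were vg, a selector gene of wing and flight muscle precursors (-0.67 ± 0.19), nkd, a Wingless antagonist (-0.67 ± 0.21), and mamo, a zinc finger gene of the ecdysone list (-0.89 ± 0.18). In summed samples a smaller part of cells that express a gene and less of its RNA per cell cannot be told apart. Of 18 myoblast identity genes tested in myoblasts, 2 were higher (BM-40-SPARC, a basement membrane protein, and E(spl)m6-BFM) and 2 lower (vg and nkd), beside 3.8% higher and 8.67% lower over all genes, so that the lower count is close to the background. Mef2, the muscle transcription factor, gave 0.34 ± 0.22 and did not pass the test. Of 15 epithelial identity genes in epithelial cells, Blimp-1, ft and baz were lower and 0 were higher, beside 6.84% lower over all genes.

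Summed markers of larval muscle fibres and of neurons and glia were lower in 1151-GAL4 without overlap in both classes. The summed level of 15 larval muscle fibre genes was 879 to 1060.0 unscaled CPM in myoblasts of 1151-GAL4 and 1348 to 1588 in 1151>mCherry-RNAi, and that of 8 neuron and glia genes 148 to 168 in 1151-GAL4 and 194 to 399 in 1151>mCherry-RNAi. In epithelial cells the muscle fibre sum was 925 to 1361 in 1151-GAL4 and 1569.9 to 1811 in 1151>mCherry-RNAi, and the neuron and glia sum 125 to 177 in 1151-GAL4 and 196 to 287 in 1151>mCherry-RNAi. Of 3 neuron and glia genes tested there, elav and para were lower, beside 6.84% lower over all genes. Of 2 tested in myoblasts, 1 gave a positive and 1 a negative value, and 0 were called. Tracheal sums overlapped in both classes, at 27.4 to 116 in myoblasts of 1151-GAL4 and 107 to 190.2 in 1151>mCherry-RNAi, and at 971 to 1188 in epithelial cells of 1151-GAL4 and 1043 to 1666 in 1151>mCherry-RNAi. Of 4 muscle fibre genes tested in myoblasts, Tm1 and sls were lower, beside 8.67% lower over all genes. A further 1 gave a positive value (0.73) that was not called. The gene sls, the titin-like Sallimus, was lower in epithelial cells too (-1.65 ± 0.19), as 1 of 3 tested there. Lists of hemocytes and the fat body overlapped between the lines in myoblasts. Salivary gland glue genes reached at most 18.2 unscaled CPM in any library. The part of these cell types in the results was not tested.

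X-linked genes were called lower in 1151-GAL4 more often than autosomal ones. In myoblasts 6 of 491 X-linked genes tested were higher and 73 lower (14.9% lower, median log2 fold change -0.20), beside 143 lower of 1992 autosomal genes (7.18%). In epithelial cells 19 of 953 X-linked genes were higher and 122 lower (12.8%, median -0.13), beside 241 lower of 4358 autosomal genes (5.53%). Each autosomal arm had a median between -0.02 and 0.05 in both classes, apart from chromosome 4 with 39 and 53 genes. This pattern was chosen after the values were seen, carries no test and was seen across genes, which are not independent. The X-linked share of X-linked and autosomal UMIs, without CG43386, CR40469 and the 28S pseudogene, overlapped between the lines: 16.9%, 17.03%, 17.8% and 18.7% in myoblasts of 1151-GAL4 and 17.7%, 19.3%, 19.97% and 20.4% in 1151>mCherry-RNAi.

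roX1, a noncoding RNA of the dosage compensation complex that coats the male X chromosome, was lower in 1151-GAL4 in both classes. Its levels were 642, 676, 1315 and 759 CPM in myoblasts of 1151-GAL4 and 1618, 1370.1, 1404 and 1807 CPM in 1151>mCherry-RNAi (log2 fold change -0.86 ± 0.23, edgeR adjusted p = 0.0248). Epithelial roX1 was at 1257, 1176, 1749.8 and 1155 CPM in 1151-GAL4 and at 3164, 2270.3, 2105 and 3309 CPM in 1151>mCherry-RNAi (-1.02 ± 0.23, edgeR adjusted p = 0.0115). The levels did not overlap in either class. roX2, its partner in the complex, gave 1.11 ± 0.46 in myoblasts and 0.61 ± 0.26 in epithelial cells and passed the test in neither. Sxl, the switch gene of female development, was lower in myoblasts (-0.61 ± 0.19, edgeR adjusted p = 0.0496), and dsx, a sex-specific transcription factor, was higher in epithelial cells (0.81 ± 0.23). The share of male and female larvae per library was not tested.

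**Figure D5:**
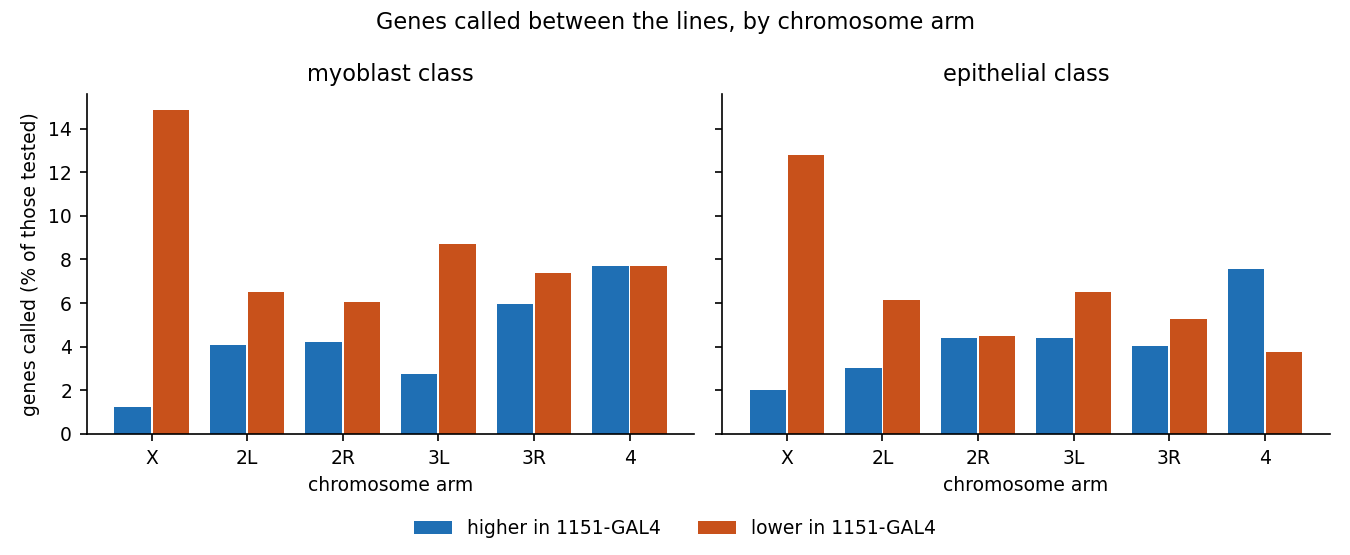
Percentage of tested genes called higher or lower in 1151-GAL4 on each chromosome arm, in myoblasts (left) and epithelial cells (right). The X chromosome has the largest percentage of lower calls and the smallest of higher calls in both classes; 39 and 53 genes were tested on chromosome 4.

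The direction of calls also moved with the annotated span of a gene, a pattern likewise chosen after the values were seen and given with no test. Of the 830 shortest genes tested in myoblasts, 56 were higher and 37 lower in 1151-GAL4, against 14 higher and 106 lower of the 830 longest. In epithelial cells 96 were higher and 46 lower among the 1771 shortest, against 38 higher and 218 lower among the 1771 longest. Median log2 fold changes were 0.15 and -0.15 in myoblasts and 0.12 and -0.13 in epithelial cells for short and long genes. The part of gene span in the counts per gene list was not tested.

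Outside the Notch pathway, genes whose line difference differed between the classes included tnc and dp, with a larger difference in myoblasts (-1.61 ± 0.30 and -1.63 ± 0.25 on the log2 scale), Hsp68 (-1.08 ± 0.19) and sea (1.22 ± 0.27). Tollo, a Toll family receptor gene, was at -0.03 ± 0.28 in myoblasts and -1.17 ± 0.25 in epithelial cells (difference 1.11 ± 0.15, edgeR adjusted p = 2.13e-06). stg, the Cdc25 phosphatase that starts mitosis, was at 167, 165, 161 and 135 CPM in epithelial cells of 1151-GAL4 and 356, 324, 244 and 290.5 CPM in 1151>mCherry-RNAi (-0.95 ± 0.18), and at -0.17 ± 0.22 in myoblasts (difference 0.83 ± 0.15, edgeR adjusted p = 8.22e-04). The difference of ImpL2, an insulin-binding secreted protein, rested on a single library: its myoblast level in replicate 1 of 1151>mCherry-RNAi was 1543 CPM, against 26.04 to 76.5 in the other 3, and without that library the difference between classes was 0.14 in place of -1.75.

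The class genes themselves were used to choose the cells, and their levels are given without a test, in unscaled CPM. Him, an inhibitor of muscle differentiation, was at 3363, 3207, 3906 and 4721 in myoblasts of 1151-GAL4 and at 4475, 2641, 1333 and 2776 in 1151>mCherry-RNAi. zfh1, a repressor that maintains precursors, was at 865, 848, 892 and 926 in 1151-GAL4 and at 1216, 1374, 2089 and 2201 in 1151>mCherry-RNAi. twi, the mesodermal selector, was at 309 to 454 in 1151-GAL4 and 172 to 333 in 1151>mCherry-RNAi, and CG9650 at 319.9 to 402 in 1151-GAL4 and 563 to 1426 in 1151>mCherry-RNAi. A barcode entered the class on the sum of these 4 genes, so nothing is read from their levels. A UMI of Him was held by 85.6% to 95.3% of myoblast barcodes per library of 1151-GAL4 and by 56.3% to 93.8% of 1151>mCherry-RNAi. For CG9650 the ranges were 23.4% to 30.5% and 34.0% to 65.5%. The paper states that Notch controls twi and Him. The part of the class rule in the E(spl) values of myoblasts was not tested.

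Of the epithelial class genes, Fas3, a septate junction protein, was at 988 to 1146 in 1151-GAL4 and 967 to 1196 in 1151>mCherry-RNAi. grh, an epithelial transcription factor, was at 824 to 1104 in 1151-GAL4 and 1130.4 to 1615 in 1151>mCherry-RNAi. The ecdysone-induced gene ImpE1 was at 725 to 1242 in 1151-GAL4 and 1506 to 2400.2 in 1151>mCherry-RNAi, and the ecdysone-induced gene ImpE2 at 1736 to 2939 in 1151-GAL4 and 1148 to 1722 in 1151>mCherry-RNAi. The eye colour gene w, which marks many transgenes, stood at 245, 304, 169 and 66.9 CPM in myoblasts of 1151-GAL4 and at 268, 325, 227 and 230 CPM in 1151>mCherry-RNAi (-0.51 ± 0.35, edgeR adjusted p = 0.369). Its epithelial value of -1.02 ± 0.42 did not pass the test either (edgeR adjusted p = 0.134).

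The epithelium of 1151>Ama-RNAi was set beside both lines, with no test, since it has the driver and a different hairpin at attP2. For all genes tested, its mean lay nearer to 1151>mCherry-RNAi in 2889 of 5375 genes (53.7%). Among genes lower in 1151-GAL4 it lay nearer to 1151>mCherry-RNAi in 263 of 366 (71.9%), and among genes higher in 1151-GAL4 in 101 of 199 (50.8%). Tektin-C in 1151>Ama-RNAi was at 11.2, 18.9 and 16.4 unscaled CPM, near the 6.49 to 21.1 of 1151>mCherry-RNAi and below the 42.4 to 54.8 of 1151-GAL4. hui, at 83.4, 90.5 and 80.5 in 1151>Ama-RNAi, lay above the 28.7 to 38.9 of 1151>mCherry-RNAi and close to the 85.1 to 153 of 1151-GAL4. Ama was knocked down in the myoblasts of that line, so that its epithelium is not a further control.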

How the data were processed

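The deposited files hold raw counts, the UMIs of each gene in each cell barcode of a library, without normalization. Per the labels and methods, reads had been mapped by STAR against BDGP6, and the authors made the count matrices with Drop-seq software. Of 11 libraries, 8 were compared. Here barcodes with 200 to 2500 genes were classed by 8 class genes, each kept barcode counted as 1 cell with no doublet caller, and barcodes with under 2 UMIs of the 8 genes (5693) or with more that met neither rule (1027) were left out. Counts were summed per library and class and tested with edgeR 4.0.16 (R 4.3.3; TMM, filterByExpr, quasi-likelihood F test, Benjamini-Hochberg over all genes tested, adjusted p below 0.05). The difference between classes was fitted on 16 sums with the library as a block. Shares and medians were compared by exact permutation over libraries (scipy 1.17.1). The edgeR tests, but not the permutation tests, were run on simulated counts, the outcome of which is not given here. Means per line for the count against 1151>Ama-RNAi were taken on log2(unscaled CPM + 1). Positions come from the annotation of the same assembly in its later release, matched by symbol (2496 of 2525 and 5325 of 5382 genes). Alternatives were DESeq2 1.42.0, other scaling, no filter on low counts, stricter classes (4 UMIs), the quality filters of the study (mitochondrial below 10%, heat shock below 6%, 28S below 1.5%), thinning to 400 UMIs and leaving out libraries. Named genes were, for each class, 10 genes per direction, ranked by fold change, that were called, did not overlap between the lines and had a mean of at least 20 CPM in the higher line, for the difference between classes the 5 largest in each direction, and called members of the lists; CG7839, scyl, Tollo, stg and the tested w, v, y and Mocs1 are named besides. The members and gene lists were chosen with earlier results of these data known. Floors and limits from counts of 0 cover counting error only, whereas the SE of log2 fold changes comes from the edgeR fit over libraries.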

Additional observations from a re-analysis of the deposited data

Results flagged for a closer look

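Single libraries stood apart from the other 3 of their line and class by Dixon's test in 11 of 90 groups of values searched, where chance gives about 1 in 20. They were the median of 372 genes per myoblast barcode in replicate 2 of 1151-GAL4, and in myoblasts CG12159 at 39.3 CPM and Arc1 at 50.04 CPM in that same library and E(spl)m7-HLH at 161 CPM in replicate 6 of 1151>mCherry-RNAi. In epithelial cells of 1151>mCherry-RNAi they were mt:ATPase8 and CG1890 at 25.5 CPM each and CG42575 at 65.6 CPM in replicate 5, hui at 41.4 CPM in replicate 7 and 28SrRNA-Psi:CR45855 at 234 CPM in replicate 1. In epithelial cells of 1151-GAL4 they were CG9636 at 20.5 CPM in replicate 3 and GstD10 at 39.2 CPM in replicate 4.

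The line difference differed between the classes, by edgeR's test of the interaction, for 10 named genes. On the log2 scale, as myoblast minus epithelial value, it was 2.98 for Dr (adjusted p = 0.0452), 1.88 for E(spl)m8-HLH, 1.68 for CG11835, 1.65 for E(spl)malpha-BFM, 1.55 for E(spl)mgamma-HLH, -8.69 for beat-Ib (a fitted value that depends on the prior count and is no bound, with 0 myoblast UMIs in every 1151-GAL4 library), -3.97 for CG13044, -1.77 for alphagamma-element:CR32865, -1.75 for ImpL2 and -1.63 for dp. The call of dp was lost without replicate 5 of 1151>mCherry-RNAi (adjusted p = 0.0827) and that of Dr in 7 alternative settings. Dr rested on 6, 2, 23 and 31 myoblast UMIs in 1151-GAL4 and 0, 1, 1 and 0 in 1151>mCherry-RNAi, and CG13044 on 0, 1, 0 and 2 myoblast UMIs in 1151-GAL4 and 0, 1, 0 and 11 in 1151>mCherry-RNAi.

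CG43386 also gave a signal in barcodes with fewer than 200 genes, which no comparison used: a mean of 6631 unscaled CPM over the 4 libraries of 1151>mCherry-RNAi and of 12.5 over those of 1151-GAL4.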

How the results depend on the processing

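Genes called in myoblasts numbered 315 and became 199 with stricter classes, 151 without the deepest 1151-GAL4 libraries 3 and 4, 76 (6 higher and 70 lower) without 1151>mCherry-RNAi libraries 5 and 6, an alternative chosen after seeing the data, and 116 to 490 when 1 library was left out; with no filter on low counts 208 were higher and 128 lower, which turned the balance. In epithelial cells 567 became 370 with thinning to 400 UMIs, 348 without the deepest libraries, 284 (27 higher and 257 lower) without 1151>mCherry-RNAi libraries 5 and 6, and 133 to 906 with 1 library left out; library totals gave 271 higher and 299 lower, and no filter 378 and 292. Without a filter the median of all genes was 0.34 in myoblasts and 0.20 in epithelial cells. Genes differing between classes numbered 36, 16 with stricter classes and 13 to 53 with 1 library left out. DESeq2 called 321 and 617. With 1 library left out, the difference in myoblast share was 8.28 to 15.3 points, in median UMIs 195.5 to 269 (myoblasts) and 353 to 486.5 (epithelial), and in median genes 48.9 to 77.2 and 112.5 to 171.4.

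Of 925 values of named genes, 822 kept direction and side of the threshold, 84 lost the call (51 on leaving out a library), 4 gained it and 15 changed sign. The sign changes were ImpL2 in myoblasts (0.33), epithelial cells (0.16) and the difference between classes (0.14), E(spl)malpha-BFM (0.999), CG13044 (0.0156) and alphagamma-element:CR32865 (0.0227) in epithelial cells without replicate 1 of 1151>mCherry-RNAi; in epithelial cells also E(spl)malpha-BFM (0.28) and ImpL2 (0.12) with thinning, ImpL2 with library totals (0.0541), no filter (0.10) and without replicate 2 of 1151-GAL4 (0.06), and CG13044 with no filter (0.0126), stricter classes (0.11) and without replicate 3 of 1151-GAL4 (0.0027) or replicate 7 of 1151>mCherry-RNAi (0.17). With 1 library left out, the lowest values were -3.26 and -2.44 for ImpL2 in myoblasts and between classes, and in epithelial cells -0.16 for ImpL2, -0.74 for E(spl)malpha-BFM, -0.43 for CG13044 and -0.74 for alphagamma-element:CR32865. The cause was not tested. No paired analysis was possible because the lines share only replicate number 1, and nothing ties those libraries together.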
